A study of Mus musculus with 12 samples.

Results

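The genes described here make up the vessel wall of the brain: endothelial cells, their barrier machinery, and the pericytes and smooth muscle cells that surround them. The set of 38 genes was chosen by name, with earlier results of these data known. Of these, 37 were among the 16640 genes of the deposited table, and Erg, an endothelial transcription factor, was not analysed here. Grouped by role, the 37 comprised 11 endothelial identity genes and receptors, 3 tight junction genes, 9 transporters of the barrier, 3 capillary surface markers, the fenestrated vessel gene Plvap, 4 transcription factors, 4 pericyte genes and 2 smooth muscle genes. All 37 reached the minimum of at least 1 signal unit in at least 2 libraries that a gene needed to be tested.

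Bulk RNA-seq was performed on the microdissected arcuate nucleus (ARC), a nucleus of the mediobasal hypothalamus that borders the median eminence, in female mice 27 weeks of age. Controls carried loxP-flanked Esr1 alleles (Esr1 fl/fl), Esr1 encoding oestrogen receptor alpha, and mutants carried the same alleles with an Nkx2-1-driven Cre. Females ate chow throughout or were given a high-fat diet (HFD) from 10 weeks of age, for 17 weeks. Chow libraries numbered 3 from controls and 4 from mutants, and HFD libraries 2 from controls and 3 labelled as mutants. The colony is described as a mixed CD-1;129P2 background. All groups, controls included, carry the floxed allele, no group carries Cre without it, and Nkx2-1 is active broadly in the ventral forebrain during development, so that the deletion is not restricted to the ARC. Nkx2-1 is not a gene of the endothelial lineage, and the deletion is not directed at vessel cells. The labels give 1 title per library and do not say that libraries came from separate animals, so p-values measure the spread between these libraries.

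Most brain capillaries form a blood-brain barrier, in which endothelial cells are sealed by tight junctions, carry nutrient carriers and efflux pumps, and depend on pericytes and on Wnt signalling for this state. Capillaries of the median eminence, next to the ARC, lack this barrier, and their endothelium is perforated by fenestrae that are bridged by diaphragms made of the Plvap protein. Vascular endothelial growth factor, which tanycytes and other cells release, acts through the receptors Flt1 and Kdr and is known to maintain fenestrated vessels.

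The ARC peptide genes Agrp, Npy, Pomc and Ghrh were present in all 12 libraries, with lowest values of 65.9, 227, 1009 and 98.0 signal units. Esr1 stood at 17.8, 7.29 and 19.8 in control chow and at 6.05, 3.15, 1.93 and 1.65 in mutant chow, but at 15.3 and 22.4 in control HFD and at 10.7, 16.6 and 11.9 in the HFD libraries labelled as mutants (mutant HFD). These 3 went against their label, and every direction drawn from them carries that limit. The table had column totals from 922172 to 1254999 and 201 to 1768 genes listed at 0 per library, and the sequencing depth is unknown. A few libraries stood apart. Control chow 2 had the highest column total and the highest summed pars tuberalis and pituitary markers (6009, against 120.6 to 2088 in all libraries outside control chow). Mutant chow 3 had the most genes at 0, the lowest median Spearman's rho with the other libraries (0.908) and the one member listed at 0, Lef1. Control HFD 1 had the highest summed choroid plexus markers (2175, against 36.08 in the other control HFD library) and the lowest pars tuberalis sum (120.6).

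Values are the deposited signal, an abundance normalised for gene length and close to TPM in scale, so that levels can be set side by side between genes. Member means over the 12 libraries ran from 1.757 for Foxq1 to 925.8 for Bsg (basigin, a chaperone of monocarboxylate transporters that many cell types also express), with a median of 13.45 against 15.99 for all genes. Egfl7, a secreted endothelial protein, followed at 64.3, Ly6c1 at 62.3 and Slc2a1 at 60.3, and these neighbours did not separate beyond their spread between libraries. Plvap stood at 40.35, above the tight junction gene Cldn5 at 19.9. At the lower end were the receptors Kdr (7.17) and Tek (5.015), the pericyte receptor Pdgfrb (4.76) and the factor Lef1 (2.396). The 7 endothelial cell markers were all present, none of them at 0 in any library, and summed to 82.88 to 221.1 signal units. Pericyte markers summed to 43.56 to 94.17, and Kcnj8 and Higd1b among them were at 0 in some libraries. In bulk tissue, fewer cells of a type and less RNA per cell cannot be told apart.

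**Figure D1:**
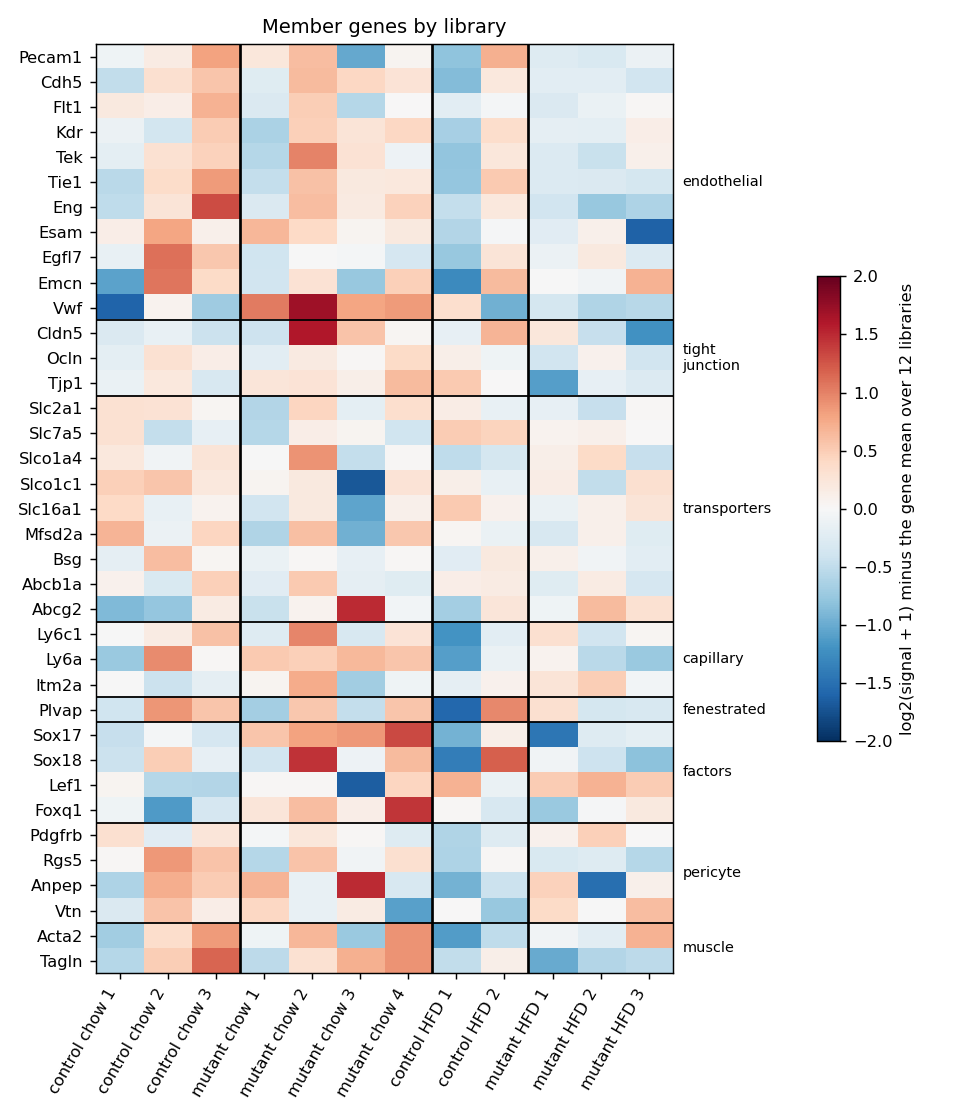
Heat map of the 37 member genes (rows, grouped by role) in the 12 libraries (columns, grouped by genotype and diet). Colour gives log2(signal + 1) minus the mean of that gene over all libraries. In control HFD 1 the endothelial rows other than Vwf are blue, and Vwf and Sox17 are red in all 4 mutant chow libraries.

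The first comparison asked whether vessel genes differ between the genotypes on chow. No member reached an adjusted p under 0.05 in limma with Benjamini-Hochberg adjustment over 15801 genes, a level passed by 0.0190% of all genes. At an unadjusted p under 0.05, 3 of 37 members were higher in mutants, where 2.59% of all genes were, and 1 was lower, where 1.75% of all genes were. The 3 were Vwf, Sox17 and Foxq1, and the 1 was Egfl7. The median member difference was -0.04 on the log2(signal + 1) scale, against 0.01 for all genes. Of 37 members, 22 (59.5%) lay below 0, against 47.8% of all genes.

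Vwf (chromosome 6, 125546774 to 125686679, GRCm38, plus strand) encodes von Willebrand factor, the adhesive protein that endothelial cells of larger vessels store. Its signal was 1.07, 5.625 and 2.845 in control chow and 12.02, 19.3, 9.85 and 10.4 in mutant chow. Each mutant library lay above each control library, with means of 3.18 ± 2.30 (SD, n = 3) and 12.9 ± 4.37 (SD, n = 4), a ratio of 4.06. The log2 difference was 1.84 ± 0.43 (SE, unadjusted p = 0.001 in limma, Benjamini-Hochberg adjusted p = 0.759).

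Sox17 (chromosome 1, 4490931 to 4497354, minus strand) encodes a SOX factor of arterial endothelium. It stood at 5.05, 7.065 and 5.57 in control chow and at 11.2, 13.45, 14.1 and 19.7 in mutant chow, again with no overlap. The ratio of means was 2.48, and the log2 difference 1.16 ± 0.37 (SE, unadjusted p = 0.00864 in limma, Benjamini-Hochberg adjusted p = 0.982). Foxq1, a forkhead factor enriched in brain endothelium, had low values, at 1.36, 0.144 and 0.977 in control chow and 1.97, 2.81, 1.74 and 5.76 in mutant chow. Its groups did not overlap either, and its log2 difference was 1.12 ± 0.41 (SE, unadjusted p = 0.0186 in limma, Benjamini-Hochberg adjusted p = 0.982). Without mutant chow 4, the count of higher members was 2 in place of 3.

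The remaining 2 factors, Sox18 and Lef1, differed by 0.43 ± 0.58 and 0.08 ± 0.47 (SE, log2). Lef1 is a nuclear partner of beta-catenin in Wnt signalling.

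**Figure D2:**
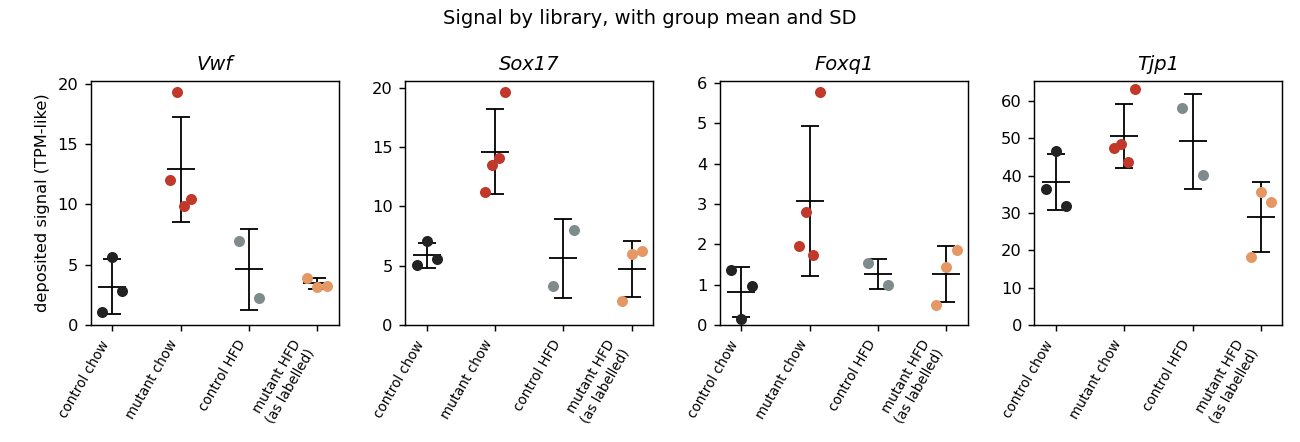
Deposited signal (linear axis from 0) of Vwf, Sox17, Foxq1 and Tjp1 in the 12 libraries by group, each point a library, with the group mean and SD as bars. Vwf and Sox17 are higher in mutant chow than in every other group, and the Tjp1 mean is lowest in the libraries labelled mutant HFD.

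Egfl7 (chromosome 2, 26580014 to 26593120, plus strand) went the other way. It stood at 54.6, 132.1 and 88.3 in control chow and at 45.9, 60.1, 58.9 and 48.1 in mutant chow, which overlap. The log2 difference was -0.69 ± 0.30 (SE, unadjusted p = 0.0365 in limma, Benjamini-Hochberg adjusted p = 0.982), and -0.39 without control chow 2, whose Egfl7 was the highest of all libraries. The count of lower members was 0 in place of 1 without control chow 2, control chow 3, mutant chow 1 or mutant chow 4, and 2 without mutant chow 2. Agpat2, on the opposite strand, overlaps Egfl7, and strand use is not given in the sources used here, so reads of the pair may not be told apart.

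General endothelial genes were spread alike in both chow groups. Pecam1, a junctional adhesion molecule, stood at 10.2, 12.4 and 19.75 in control chow and 12.9, 17.35, 4.875 and 11.5 in mutant chow. Cdh5, the endothelial cadherin, stood at 4.25, 8.24 and 9.77 against 5.23, 10.4, 8.81 and 7.86. The log2 differences were -0.32 ± 0.43 for Pecam1 and 0.14 ± 0.35 for Cdh5 (SE), within the spread between libraries. Flt1, a VEGF receptor that also acts as a decoy, stood at 12.4, 11.85 and 18.05 in control chow and 8.57, 15.6, 6.91 and 10.8 in mutant chow, a log2 difference of -0.43 ± 0.28 (SE).

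No barrier gene reached an unadjusted p under 0.05 on chow. Cldn5, the main sealing claudin of brain capillaries, stood at 14.15, 15.75 and 12.7 in control chow and 12.8, 55.25, 26.5 and 17.9 in mutant chow. Mutant chow 2 held the highest value and the groups overlapped, with a log2 difference of 0.74 ± 0.45 (SE). All 3 tight junction genes (Cldn5, Ocln and Tjp1) had fitted differences above 0, the smallest 0.0096 for Ocln, with a median of 0.40. Of 9 transporters, 8 had differences below 0, with a median of -0.22. Over all genes 47.8% lay below 0.

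Slc2a1, the glucose carrier of the barrier, stood at 72.9, 72.5 and 60.8 in control chow and 38.8, 79.3, 51.1 and 74.4 in mutant chow (log2 difference -0.22 ± 0.24, SE). Slco1c1, a thyroxine carrier, stood at 19.8, 21.0 and 16.25 against 14.6, 16.2, 3.61 and 17.0 (-0.71 ± 0.42). Mutant chow 3, the library with most genes at 0, held the lowest Slco1c1 value, and without it the difference was -0.24. Mfsd2a, which carries lysophospholipids and restrains transcytosis, stood at 37.9, 21.5 and 31.9 against 15.05, 35.9, 11.5 and 34.5 (-0.44 ± 0.37). Abcb1a, an efflux pump, stood at 5.87, 4.27 and 7.98 against 4.57, 8.28, 4.76 and 4.46 (-0.12 ± 0.30), and its reads may be shared with its near copy Abcb1b. These 4 carriers overlapped between the chow groups.

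The wall cell genes Pdgfrb and Acta2 also overlapped between the genotypes on chow. Pdgfrb, the receptor that recruits pericytes, stood at 6.045, 3.802 and 5.69 in control chow and 4.50, 5.64, 4.72 and 3.73 in mutant chow (log2 difference -0.12 ± 0.28, SE). Acta2, smooth muscle actin, stood at 4.40, 10.1 and 14.7 against 7.18, 12.8, 4.20 and 15.3 (0.01 ± 0.46). Reads of Acta2 may be shared with other actins. All 6 pericyte markers had fitted differences below 0 on chow (median -0.31), where 47.8% of all genes did, and 0 were at an unadjusted p under 0.05. Their sums were 56.14 to 94.17 in control chow and 47.28 to 69.93 in mutant chow, which overlap. Kcnj8 and Higd1b among them were each at 0 in at least 1 mutant chow library.

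Markers of other cells also differed in level between the genotypes on chow. The 6 microglia markers summed to 259.9 to 362.1 in control chow and 410.7 to 493 in mutant chow, without overlap, and the 5 blood markers to 644.7 to 1684 and 1573 to 3178, which overlap. Endothelial marker sums were 113.6 to 221.1 and 116.7 to 196.3. The 6 oligodendrocyte markers summed to 1244 to 3720 and 1792 to 5673. Fitted differences were above 0 for all 6 microglia markers (4 at an unadjusted p under 0.05, median 0.48), 4 of 5 blood markers (2 at that level) and all 6 oligodendrocyte markers (0 at that level, median 0.65). The part of these cells in the Vwf and Sox17 differences was not tested. Among pathway genes, 1 of 23 other endothelial genes was at an unadjusted p under 0.05, the arterial connexin Gja4, at 0.90 ± 0.39 (SE, unadjusted p = 0.0404 in limma, Benjamini-Hochberg adjusted p = 0.982). The pericyte gene Ndufa4l2 was lower (-2.08 ± 0.66, unadjusted p = 0.00831), the 1 of 11 pericyte genes at that level, with values overlapping. None of 15 Wnt barrier pathway genes or of 16 VEGF, angiopoietin and Notch genes reached it. Over all genes the shares at that level were 2.59% higher and 1.75% lower, and 47.8% lay below 0.

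The second comparison set HFD against chow in mutants. It shares the mutant chow libraries with the comparison above, so genes that were high there tend to be low here. No member reached an adjusted p under 0.05 (limma, Benjamini-Hochberg), which 0.0190% of all genes did. At an unadjusted p under 0.05, 6 of 37 members were lower on HFD, where 3.94% of all genes were, and 0 were higher, where 1.44% of all genes were. The 6 were Sox17, Vwf, Tjp1, Ly6a, Tagln and Esam. Of 37 members, 26 (70.3%) lay below 0, against 53.1% of all genes. The median difference over all 37 was -0.19 on the log2 scale, against -0.02 for all genes. Leaving out mutant HFD 3 gave 4 lower members in place of 6. With array weights 10 were lower, and with the endothelial score described below as a covariate 3 were lower and 3 higher.

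Vwf stood at 3.94, 3.15 and 3.28 in the libraries labelled mutant HFD, below each mutant chow library and inside the range of control chow. The log2 difference was -1.60 ± 0.43 (SE, unadjusted p = 0.00284 in limma, Benjamini-Hochberg adjusted p = 0.564). Sox17 stood at 2.04, 5.97 and 6.25, also below each mutant chow library, at -1.52 ± 0.37 (SE, unadjusted p = 0.00148 in limma, adjusted p = 0.564). Foxq1 stood at 0.490, 1.45 and 1.855 and overlapped mutant chow.

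Tjp1 (chromosome 7, 65296165 to 65527781, minus strand) encodes ZO-1, the scaffold that ties claudins and occludin to actin, and is not restricted to endothelium. It stood at 47.5, 48.6, 43.7 and 63.1 in mutant chow and 18.2, 35.8 and 32.95 in the libraries labelled mutant HFD, with no overlap. The log2 difference was -0.83 ± 0.25 (SE, unadjusted p = 0.00588 in limma, Benjamini-Hochberg adjusted p = 0.724), and without mutant HFD 1, the lowest library, it was -0.54.

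Ly6a, a capillary surface protein also known as Sca-1, stood at 58.6, 57.15, 64.2 and 60.4 in mutant chow and 42.8, 27.7 and 24.0 on HFD. Its groups were far apart for their spread, and the log2 difference was -0.95 ± 0.35 (SE, unadjusted p = 0.0184 in limma, Benjamini-Hochberg adjusted p = 0.825). Reads of Ly6a and Ly6c1 may be shared within the Ly6 family. Tagln, the actin-binding transgelin of smooth muscle, stood at 10.54, 19.3, 26.2 and 29.9 in mutant chow and 7.17, 10.04 and 10.50 on HFD, so that the groups were separated by a very small margin (-1.06 ± 0.42, unadjusted p = 0.0259). Pcsk7 overlaps Tagln on the opposite strand. Esam, an endothelial junction molecule, stood at 22.95, 18.8, 14.6 and 16.25 against 11.9, 15.1 and 3.93, with overlap (-0.91 ± 0.38, unadjusted p = 0.0325), and the difference was -0.39 without mutant HFD 3.

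Other genes of the endothelium lay below 0 as well. Of 23 further endothelial genes, 5 were lower and 0 higher at an unadjusted p under 0.05, and 21 of 23 lay below 0 with a median of -0.42. The same mutant chow libraries had been high for this list: 20 of 23 lay above 0 against control chow (median 0.19). Between diets in controls, 14 of 23 lay below 0 (60.9%, median -0.10), against 50.7% of all genes. Icam1, the leukocyte adhesion molecule, had the smallest p of these, with 6.13, 5.21, 9.41 and 5.125 in mutant chow and 3.135, 1.305 and 1.725 on HFD (-1.30 ± 0.34, SE, unadjusted p = 0.00233 in limma, Benjamini-Hochberg adjusted p = 0.564). The sialomucins Podxl (-0.85 ± 0.27) and Cd34 (-0.74 ± 0.25) and the factor Ets1 (-1.42 ± 0.51) followed, each without overlap. Of the 11 pericyte and recruitment genes, 2 were lower, the receptor Tgfbr2 and the ligand Tgfb1, of 7 smooth muscle genes 1 was, the kinase Mylk, and of 15 Wnt pathway genes 1 was, Reck. Over all genes 3.94% were lower and 1.44% higher at that level, and 53.1% lay below 0.

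**Figure D3:**
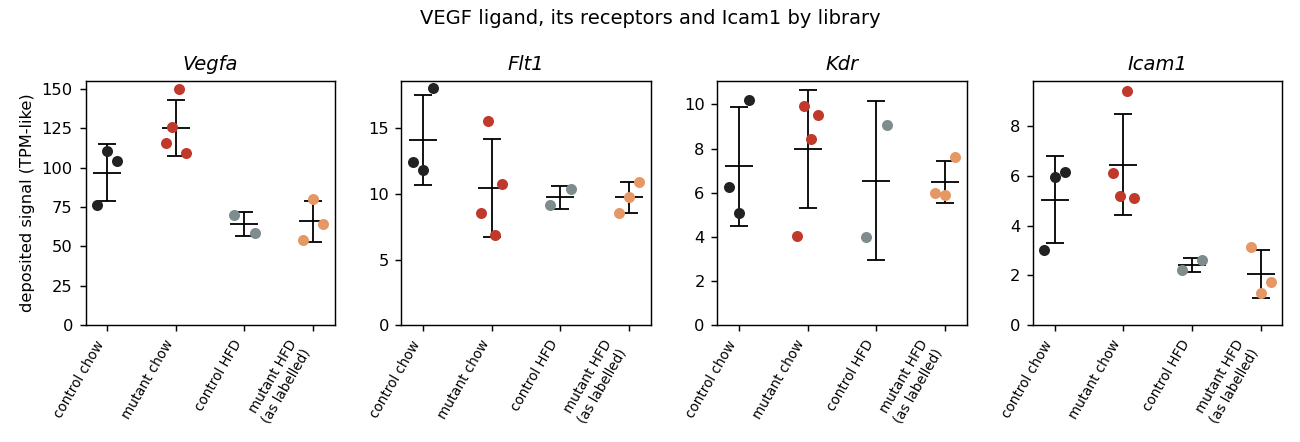
Deposited signal (linear axis from 0) of Vegfa, its receptors Flt1 and Kdr, and the adhesion molecule Icam1 by group, each point a library, with the group mean and SD as bars. Vegfa ranges from 76.2 to 150.1 on chow and from 53.7 to 79.8 on HFD, and Kdr overlaps between all groups. Flt1 in control chow (11.85 to 18.05) lies above all 5 HFD libraries (8.58 to 10.9).

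Vegfa, the ligand of Flt1 and Kdr, was the gene of the VEGF list with the smallest p. It stood at 76.2, 110.3 and 104 in control chow and 115.9, 125.6, 150.1 and 109.5 in mutant chow, against 69.8 and 58.8 in control HFD and 53.7, 79.8 and 64.3 in the libraries labelled mutant HFD. Within each genotype all HFD libraries lay below all chow libraries. The log2 difference was -0.92 ± 0.19 in mutants (SE, unadjusted p = 0.000321 in limma, Benjamini-Hochberg adjusted p = 0.391) and -0.57 ± 0.22 in controls (unadjusted p = 0.0253, adjusted p = 0.998). Averaged over genotypes it was -0.75 ± 0.15 (unadjusted p = 0.000234, adjusted p = 0.428). Both receptors had averaged differences below 0, -0.26 ± 0.22 for Flt1 and -0.18 ± 0.28 for Kdr (SE), and neither passed an unadjusted p of 0.05. Flt1 in both control HFD libraries lay below each control chow library (ratio of means 0.692, log2 difference -0.47 ± 0.34, SE), whereas in mutants the diets overlapped (-0.04 ± 0.28).

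In controls, HFD against chow compared 2 libraries with 3. No member and no gene passed the adjusted threshold (limma, Benjamini-Hochberg, 0% of 15801 genes). At an unadjusted p under 0.05, 2 of 37 members were lower, where 2.10% of all genes were, and 0 were higher, where 1.44% of all genes were. Of 37 members, 27 (73%) lay below 0, against 50.7% of all genes. The median member difference was -0.38, against -0.01 for all genes. This median turned on 1 library: it was -0.01 without control HFD 1 and -0.66 without control HFD 2. The count of 2 became 0 without control HFD 1 or without control chow 3, 5 without control HFD 2 and 7 without control chow 1.

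The 2 members were Ly6c1 and Rgs5. Ly6c1, a capillary surface marker, stood at 58.1, 65.5 and 88.7 in control chow and 25.1 and 50.1 in control HFD, without overlap (-0.95 ± 0.39, SE, unadjusted p = 0.0322 in limma, Benjamini-Hochberg adjusted p = 0.998). Rgs5, a regulator of G protein signalling and a pericyte marker, stood at 21.33, 39.1 and 31.8 in control chow and 13.2 and 21.29 in control HFD, a separation of almost nothing (-0.79 ± 0.36, unadjusted p = 0.0472). Without control HFD 1 the differences were -0.47 for Ly6c1 and -0.47 for Rgs5. Leaving out all 3 libraries that stood apart, they were -0.51 and -0.28. Pdgfrb stood at 2.725 and 3.699 in control HFD and Acta2 at 3.01 and 5.125, with differences of -0.54 ± 0.34 and -0.98 ± 0.55 (SE). Of 16 VEGF, angiopoietin and Notch genes, 2 were lower and 2 higher in control HFD at an unadjusted p under 0.05. Of 11 pericyte and recruitment genes 2 were lower. Over all genes 2.10% were lower and 1.44% higher at that level.

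Averaged over both genotypes, HFD against chow put most members on the lower side, although no gene passed the adjusted threshold (limma, Benjamini-Hochberg, 0% of 15801). Of 37 members, 32 (86.5%) lay below 0, against 53.5% of all genes, and the median was -0.26 against -0.02. At an unadjusted p under 0.05, 7 members were lower, where 3.69% of all genes were, and 1 was higher, where 1.60% of all genes were. All 11 endothelial identity genes and receptors, all 4 pericyte genes and both smooth muscle genes lay below 0, with medians of -0.40, -0.39 and -0.66, while the 9 transporters had a median of -0.07. Of 23 other endothelial genes 3 were lower at that level, as were 2 of 16 VEGF, angiopoietin and Notch genes. Of 11 pericyte and recruitment genes 1 was.

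The counts of members depended on single libraries. The 7 lower members became 1 without control HFD 1, 2 without control chow 2, 4 without control chow 3 or mutant chow 4, and 11 without control chow 1 or control HFD 2. Directions depended on control HFD 1 as well. Without it the averaged differences of the endothelial identity genes and receptors Pecam1, Kdr and Emcn were 0.12, 0.07 and 0.40. Plvap, Sox18, Cldn5 and Bsg also turned above 0, at 0.26, 0.20, 0.02 and 0.02, and the other members kept their direction. Leaving out any 1 library gave a median of -0.40 to -0.20. With the endothelial score as a covariate (the mean log2 value of Pecam1, Cdh5, Tie1, Esam, Egfl7 and Eng, themselves members), 0 of 37 were lower and the median was -0.06.

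Without all 3 libraries that stood apart, the averaged differences given next were -0.35 for Ly6a and -0.51 for Sox17. Ly6a had the smallest p, with 18.45 and 36.8 in control HFD against 24.0, 79.0 and 41.4 in control chow, and an averaged difference of -0.82 ± 0.27 (SE, unadjusted p = 0.0105 in limma, Benjamini-Hochberg adjusted p = 0.823). Sox17 (-0.83 ± 0.29), Esam (-0.78 ± 0.29), Rgs5 (-0.62 ± 0.23), Tagln (-0.80 ± 0.33), Eng (-0.66 ± 0.30) and Ly6c1 (-0.56 ± 0.26) were the other 6, all with chow and HFD ranges that overlapped. Eng, the endoglin co-receptor for ligands of the TGF-beta family, stood at 10.2 to 38.3 (median 18.2) in the 7 chow libraries and at 8.44 to 17.4 (median 10.5) in the 5 HFD libraries. Fpgs overlaps Eng on the opposite strand.

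Slc7a5, the large neutral amino acid carrier LAT1, was the member on the higher side. It stood at 30.9, 17.7 and 22.2 in control chow and 16.5, 27.5, 25.9 and 18.6 in mutant chow, against 35.7 and 34.5 in control HFD and 26.15, 26.7 and 25.0 in the libraries labelled mutant HFD. The SD was 5.51 over the chow libraries and 5.053 over the HFD libraries. Both control HFD libraries lay above all chow libraries, and the libraries labelled mutant HFD lay inside the chow range. The difference was 0.42 ± 0.18 (SE, unadjusted p = 0.0386 in limma, Benjamini-Hochberg adjusted p = 0.886), and the count of 1 became 0 without any of control chow 2, control chow 3, mutant chow 1, control HFD 1 or a mutant HFD library, and 2 without control chow 1. Lef1, Slc16a1, Itm2a and Abcg2 were the other members above 0, at 0.75 ± 0.36, 0.29 ± 0.23, 0.19 and 0.15 ± 0.35.

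**Figure D4:**
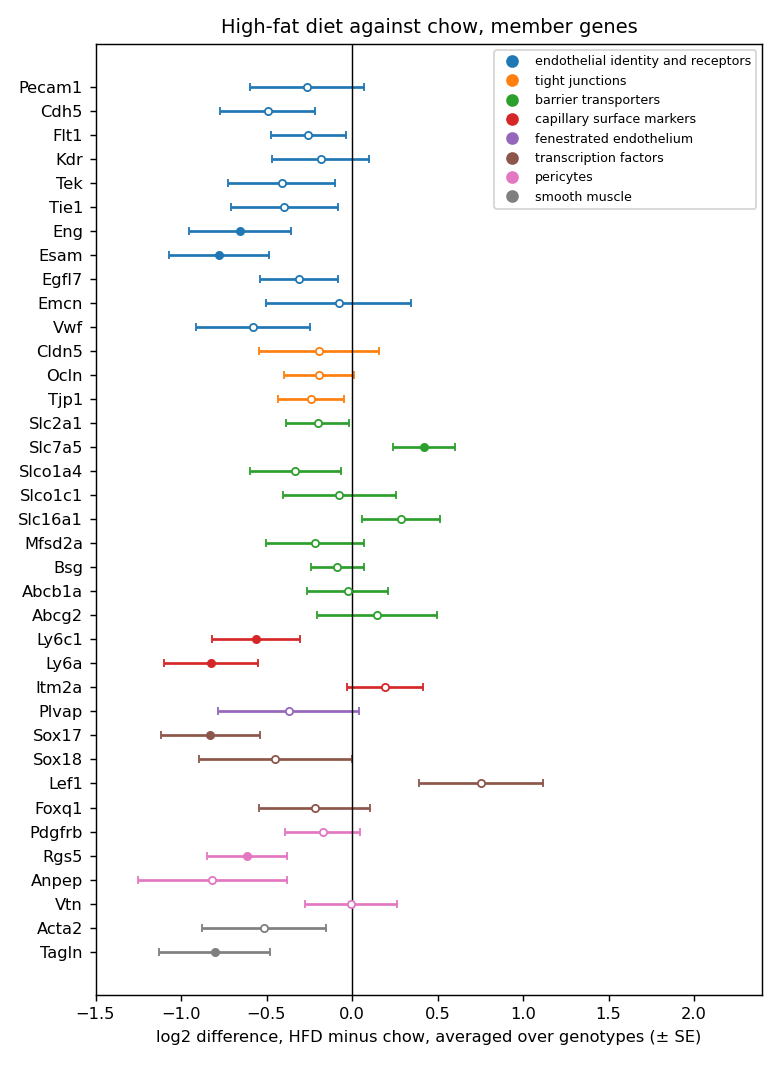
Fitted log2 difference between HFD and chow, averaged over genotypes (horizontal axis, points with SE), for the 37 members coloured by role. Filled points have an unadjusted p under 0.05, 7 of them below 0 and Slc7a5 above 0, and 32 of 37 points lie below 0. Some of these, among them Pecam1, Kdr and Emcn, lie above 0 without control HFD 1 (not drawn).

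Marker sums of vessel and other cells stood beside these diet values as follows. Endothelial markers summed to 113.6 to 221.1 and 116.7 to 196.3 on chow and to 82.88 to 168.8 and 90.42 to 125.7 on HFD, and smooth muscle markers to 16.2 to 54.2 and 19.23 to 47.12 against 14.94 to 23.72 and 15.26 to 25.31, controls first. Pericyte markers summed to 56.14 to 94.17 and 47.28 to 69.93 on chow and to 43.56 to 48.13 and 60.88 to 64.83 on HFD, so that the diets did not overlap in controls. Microglia markers were 275.3 to 346.1 and 275.9 to 340.9 on HFD, below mutant chow, and in mutants all 6 had diet differences below 0 (median -0.44), 3 of them at an unadjusted p under 0.05. The 6 oligodendrocyte markers also lay below 0 in mutants (median -0.65), with overlapping sums. All 6 tanycyte markers lay below 0 averaged over genotypes (median -0.45), but their sums overlapped within each genotype, at 398.1 to 491.5 and 276.1 to 468.7 in controls and 337.8 to 541.1 and 264.9 to 345.4 in mutants, chow first. All 5 pars tuberalis and pituitary markers lay below 0 in controls (median -1.93) and averaged (-0.94), and all 6 neuron markers above 0 in both genotypes and averaged (median 0.27). At an unadjusted p under 0.05, 2 of 6 tanycyte markers were lower in mutants, 1 in controls and 2 averaged. For pericyte markers the counts were 0, 2 and 2, and for pars tuberalis and pituitary markers 0, 2 and 0. No oligodendrocyte or neuron marker reached that level in these comparisons. Over all genes, 3.94%, 2.10% and 3.69% were lower in mutants, in controls and averaged, and 53.1%, 50.7% and 53.5% lay below 0. The part of these cells in the diet differences was not tested.

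Promoter sequence is shown for 4 members from the comparisons above, as 1 window each. Of these windows, 2 hold a match to the motif of ETS factors, the family of Erg, 1 a match to that of TCF/LEF factors and 1 no match. Egfl7 has other windows that differ from the one shown. That at chr2:26580833-26581082 holds 2 ETS matches and 1 TCF/LEF match, and that at chr2:26586386-26586635 holds none. The 250 bases before the start of the transcript were taken from RefSeq (GRCm38.p6), which gave 36 windows for 25 of the 38 members. Capitals mark CNGGAAG (ETS) or CTTTGA (TCF/LEF) on either strand, and no matches overlapped. The windows are Egfl7 at chr2:26583615-26583864 on the plus strand, Flt1 at chr5:147726012-147726261 on the minus strand, Rgs5 at chr1:169655251-169655500 on the plus strand and Eng at chr2:32646345-32646594 on the plus strand, each read 5′ to 3′ on its own strand.
Egfl7: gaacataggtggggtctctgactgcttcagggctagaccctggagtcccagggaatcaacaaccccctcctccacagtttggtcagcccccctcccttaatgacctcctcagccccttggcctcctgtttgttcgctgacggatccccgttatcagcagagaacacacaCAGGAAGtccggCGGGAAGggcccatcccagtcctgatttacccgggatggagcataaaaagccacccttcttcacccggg
Flt1: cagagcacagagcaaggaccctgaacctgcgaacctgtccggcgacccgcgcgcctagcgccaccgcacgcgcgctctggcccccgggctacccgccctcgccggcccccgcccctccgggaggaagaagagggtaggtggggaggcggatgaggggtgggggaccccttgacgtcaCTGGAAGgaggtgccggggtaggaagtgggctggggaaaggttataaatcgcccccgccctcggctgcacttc
Rgs5: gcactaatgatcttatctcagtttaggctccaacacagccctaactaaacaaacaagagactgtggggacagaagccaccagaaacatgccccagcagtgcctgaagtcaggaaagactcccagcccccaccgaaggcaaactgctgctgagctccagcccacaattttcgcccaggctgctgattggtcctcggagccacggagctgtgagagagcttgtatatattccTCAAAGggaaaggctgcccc
Eng: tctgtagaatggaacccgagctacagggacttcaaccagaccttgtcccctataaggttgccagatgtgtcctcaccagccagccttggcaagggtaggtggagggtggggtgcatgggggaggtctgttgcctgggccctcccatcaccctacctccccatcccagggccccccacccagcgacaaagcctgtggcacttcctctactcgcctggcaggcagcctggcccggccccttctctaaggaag
An ETS match was present in 13 of the 36 member windows, against 26.6% of 32851 windows of all genes. A TCF/LEF match was present in 5 of 36, against 13.8%, and a SOX match (AACAAT) in 4 of 36, against 9.42%. Some members have several windows, and a match in these letters does not show binding.

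Mutant against control on HFD compared 3 libraries with 2. No member passed the adjusted threshold (limma, Benjamini-Hochberg), which 0.00633% of all genes did. At an unadjusted p under 0.05, 1 of 37 members was lower, where 1.11% of all genes were, and 0 were higher, where 1.09% of all genes were. The median was -0.04, against -0.01 for all genes, and was 0.32 without control HFD 2. The 1 member was Tjp1, at 58.25 and 40.3 in control HFD and 18.2, 35.8 and 32.95 in the libraries labelled mutant HFD, without overlap (-0.78 ± 0.30, SE, unadjusted p = 0.0224 in limma, Benjamini-Hochberg adjusted p = 1). It was not counted once mutant HFD 1 was left out. Vwf stood at 6.99 and 2.24 in control HFD and Sox17 at 3.29 and 7.98, so that the genotypes overlapped for both on HFD. Of 16 VEGF, angiopoietin and Notch genes, 2 were lower and 0 higher at an unadjusted p under 0.05, and 0 passed the adjusted threshold. Esm1, a secreted proteoglycan of sprouting endothelium, was among the 2. It stood at 7.85 and 7.66 in control HFD and 2.825, 1.04 and 1.63 in the libraries labelled mutant HFD (-1.68 ± 0.55, SE, unadjusted p = 0.00943 in limma).

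The genotype by diet interaction, the diet difference in mutants minus that in controls, tested whether the differences above differ from each other. No gene passed the adjusted threshold (limma, Benjamini-Hochberg, 0% of 15801). At an unadjusted p under 0.05, 3 members were below 0, where 1.87% of all genes were, and 0 above, where 1.56% of all genes were. Without control HFD 2 the counts were 2 below and 3 above, and the interaction of Sox17 was -0.84. Vwf had an interaction of -2.04 ± 0.67 (SE, unadjusted p = 0.01 in limma), Tjp1 of -1.18 ± 0.39 (unadjusted p = 0.0102) and Sox17 of -1.38 ± 0.58 (unadjusted p = 0.0351), each with a Benjamini-Hochberg adjusted p = 0.999. The diet difference of Vwf was -1.60 in mutants and 0.44 in controls, and that of Tjp1 -0.83 and 0.35. Without all 3 libraries that stood apart, 5 members were below 0. Cldn5 had an interaction of -1.47 ± 0.70 (SE, unadjusted p = 0.0582), with 15.4 and 28.45 in control HFD and 20.6, 12.5 and 6.999 in the libraries labelled mutant HFD.

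Plvap (chromosome 8, 71497765 to 71511752, minus strand, overlapped by Gtpbp3 on the opposite strand) was then set against the barrier genes. It stood at 27.0, 66.9 and 53.1 in control chow, 22.1, 52.5, 25.45 and 53.1 in mutant chow, 11.5 and 70.5 in control HFD, and 45.3, 28.05 and 28.7 in the libraries labelled mutant HFD. Both the lowest and the highest value of all libraries were in control HFD, and all 4 groups overlapped. The log2 differences were -0.36 ± 0.53 between genotypes on chow, 0.20 ± 0.64 on HFD, -0.09 ± 0.53 for diet in mutants and -0.65 ± 0.64 for diet in controls (SE), none beyond the spread between libraries.

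The barrier mean was the mean log2(signal + 1) of Cldn5, Ocln, Slc2a1, Slco1a4, Slco1c1, Abcb1a, Abcg2 and Mfsd2a. It ran from 3.54 to 4.41 over all libraries, and Plvap from 3.64 to 6.16 on the same scale, but a mean over 8 genes is narrower by averaging alone. Taken singly, the highest library exceeded the lowest 7.89-fold for Cldn5, 5.97-fold for Abcg2 and 5.82-fold for Slco1c1, against 6.16-fold for Plvap. Plvap exceeded the barrier mean by 0.91, 2.27 and 1.75 in control chow, 0.99, 1.34, 1.06 and 1.75 in mutant chow, and 1.77, 1.02 and 1.30 in the libraries labelled mutant HFD. In control HFD the difference was -0.11 and 2.29. Control HFD 1 was the one library in which Plvap did not exceed the barrier mean. Group means were 1.64 ± 0.68 (SD, n = 3), 1.28 ± 0.35 (n = 4), 1.36 ± 0.38 (n = 3) and 1.09 ± 1.69 (n = 2), in that order. Taken singly, the barrier gene Slc2a1 had a higher mean over all libraries (60.26 signal units) than Plvap (40.35).

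Plvap was compared across libraries with general endothelial genes and with the barrier genes. Pearson's r between Plvap and the endothelial score was 0.814 and Spearman's rho 0.706 over 12 libraries, with r = 0.744 without control chow 3 and control HFD 1, and r = 0.876 after the group means were removed. Against the barrier mean r was 0.508 and rho 0.58. The points share their library and its scaling, and no p is given because both scores are made of members. The difference between the 2 correlations was not tested.

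The median eminence and the pars tuberalis, the pituitary layer beneath it, adjoin the ARC, so their markers were set beside Plvap. For the pars tuberalis and pituitary score r was 0.605 (permutation p = 0.0368, Benjamini-Hochberg adjusted p = 0.0736 over the 4 relations computed) and rho 0.399 (permutation p = 0.201, adjusted p = 0.245). Without control HFD 1 and control chow 2, the libraries farthest from the median score, r was -0.02, so that this relation rests on those libraries. For the tanycyte score r was 0.479 (permutation p = 0.116, adjusted p = 0.116) and rho 0.364 (p = 0.245, adjusted p = 0.245), and r was 0.392 without mutant HFD 1 and control HFD 1. The permutation tests were two-sided with 100000 resamples.

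**Figure D5:**
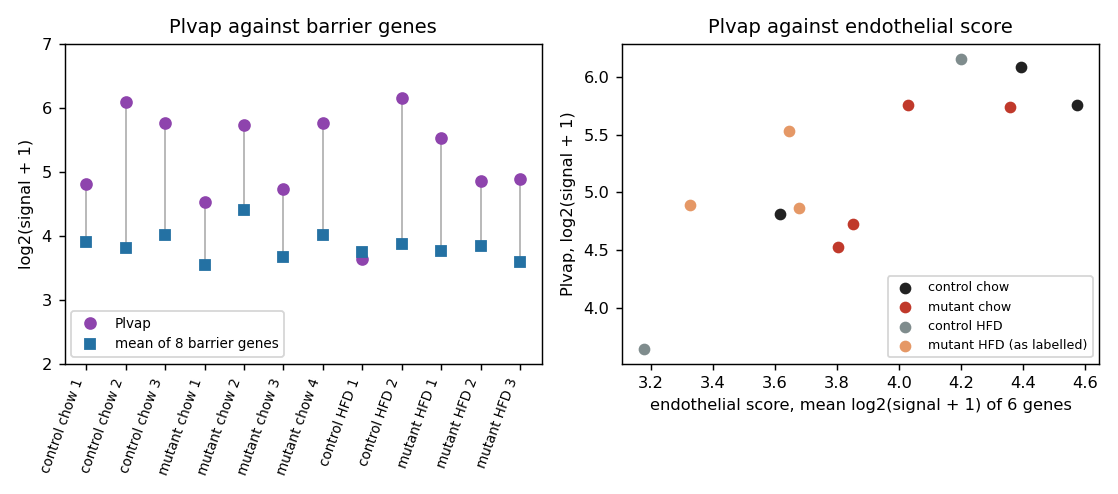
Left, log2(signal + 1) of Plvap (circles) and the mean of the 8 barrier genes (squares) in each of 12 libraries, joined by lines. Right, Plvap against the endothelial score (mean log2(signal + 1) of 6 genes), each point a library coloured by group. Plvap lies below the barrier mean in control HFD 1 and above it in the other 11 libraries.

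Of the 4 carriers given by library on chow above, the HFD values lay within the range of the chow libraries, apart from 1 of Abcb1a. Other carriers left that range, among them Slc7a5 upward, and Slc16a1, a monocarboxylate carrier, reached 29.37 in control HFD 1 against at most 26.68 on chow. Slc2a1 stood at 65.7 and 53.2 in control HFD and 52.4, 42.4 and 59.75 in the libraries labelled mutant HFD, inside the mutant chow range (averaged log2 difference -0.20 ± 0.19, SE). Mfsd2a stood at 23.9 and 21.1, and at 18.6, 25.05 and 19.5 (-0.22 ± 0.28). Abcb1a stood at 6.08 and 6.25, and at 4.51, 6.235 and 4.115 (-0.03 ± 0.24). For Slco1c1 the values were 15.2 and 12.4, and 15.6, 9.665 and 17.6 (-0.07 ± 0.33). None of these differences exceeded the spread between libraries.

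On HFD, Pecam1 and Cdh5 were lowest in control HFD 1. Pecam1 stood at 5.85 and 18.6 in control HFD and 9.015, 8.71 and 10.04 in the libraries labelled mutant HFD, and Cdh5 at 3.05 and 7.56, and 5.37, 5.38 and 4.62. Flt1 was narrow, at 9.14 and 10.4, and 8.58, 9.75 and 10.9, lowest in mutant HFD 1. Averaged over genotypes the log2 differences were -0.26 ± 0.33 for Pecam1 and -0.49 ± 0.28 for Cdh5 (SE). Across the 12 libraries the highest member value exceeded the lowest by 1.80-fold for Bsg and 1.83-fold for Ocln, and by 14.9-fold for the pericyte peptidase Anpep, 18.1-fold for Vwf and 40-fold for Foxq1.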

How the data were processed

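The authors pseudo-aligned reads to the mm10 mouse transcriptome with Kallisto in gene mode and tested genes with Sleuth, a likelihood-ratio test that cannot be run on 1 abundance per gene. Versions, annotation release and strand use are not given in the sources used here. The deposited signal is an abundance of 16640 genes in 12 libraries, which the authors scaled for depth and gene length to near TPM. Its exact scaling is not stated, column totals were 922172 to 1254999, values were not multiples of 1 read, and depth, and with it counting error, is unknown. All columns were matched to labels (0 unmatched), and no 2 libraries held identical values. Symbols and positions came from GENCODE M21 (GRCm38), with 16633 of 16640 identifiers matched.

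Signal was transformed as log2(value + 1), which understates differences of low genes, and genes with at least 1 in at least 2 libraries were kept (15801). limma 3.58.1 in R 4.3.3, with a mean-variance trend and a mean for each group, took in all 12 libraries. Tests were two-sided, with Benjamini-Hochberg adjustment over all 15801 genes and a threshold of 0.05. The design allowed for counts or abundances, and the fit for abundances applied. The script was tested on simulated data. Replicate numbers follow accession order and pair no animals.

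Members, lists and rules were chosen with earlier results of these data known. Values in every library are given for 12 chosen members and for each member at an unadjusted p under 0.05. Pathway genes are named from that level, at most 4 per list, smallest p first, for genotype on chow and diet in mutants. In the other comparisons only Vegfa and Esm1 are named, and further genes at that level are not. Alternatives changed the pseudocount, filter, scaling, variance model, samples, weights and libraries, or added an endothelial covariate. Counts at an unadjusted p and the joint removal of the 3 libraries that stood apart were added after the data were seen.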

Additional observations from a re-analysis of the deposited data

Results flagged for a closer look

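One of 26 measures checked held a library far from the others of its group. In mutant chow, Abcb1a stood at 4.57, 8.28, 4.76 and 4.46 signal units, and the gap of mutant chow 2 to the nearest library was 0.922 of the range of the group. The cut-off used for flagging is passed by chance in about 1 in 20 groups.

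The diet difference differed between the genotypes at an unadjusted p under 0.05 for 3 members, by an interaction of -2.04 for Vwf, -1.18 for Tjp1 and -1.38 for Sox17 on the log2 scale (limma). The Benjamini-Hochberg adjusted p was 0.999 for each. The libraries labelled mutant HFD enter all 3, and Esr1 went against their label.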

How the results depend on the processing

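No member passed the adjusted threshold under any alternative run. Of 646 values of single genes, 629 kept their direction and side of the threshold, and the 17 that turned were all of Plvap. The other genes were taken for their unadjusted p in that comparison, so their kept direction shows no stability. No paired analysis was possible because replicate numbers follow accession order and mark no shared animal or batch. With groups of 2 to 4 libraries and unknown depth, small differences may not be detectable. Rescaling columns to 1 sum moved the median of all genes to 0.12 for diet in controls and to -0.18 for the interaction. Foxq1 had no value with a minimum mean of 5.

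With the endothelial covariate the median member difference became 0.11 for diet in mutants and 0.0733 in controls, and Plvap became 0.74, 0.27 and, averaged, 0.51. Leaving out 1 library gave median member differences of -0.26 to 0.32 between genotypes on HFD, -0.66 to -0.0112 between diets in controls and -0.20 to 0.38 for the interaction. For Plvap these ranges were -1.07 to 1.46, -1.91 to 0.61 and -0.70 to 1.82, with -0.31 to 0.10 for diet in mutants and -1.002 to 0.26 averaged. For Plvap minus the barrier mean they were -0.92 to 1.47, -1.75 to 0.64 and -0.56 to 1.83. The extremes came from control HFD 1 and 2, except for diet in mutants. Without the 3 libraries that stood apart, the median was 0.0603 for diet in controls and -0.29 for the interaction. Plvap was then 0.0588 for genotype on chow, -1.07 between genotypes on HFD, 0.88 between diets in controls, 0.32 averaged and -1.12 for the interaction, and Plvap minus the barrier mean -0.92 between genotypes on HFD, 0.96 between diets in controls and -0.95 for the interaction. The cause was not tested.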
